A study of Homo sapiens with 4 samples.

Results

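Metallothioneins were followed across 4 RNA-seq libraries of H9, an established human embryonic stem cell line. The genes were 9 metallothioneins and MTF1, the transcription factor that switches them on, 10 of the 60671 genes in the deposited table, chosen by gene name, as the metallothionein family with its activator, with earlier results of these data known. Of the 10, the 9 metallothioneins reached a mean of 1 TPM (a level per length of transcript, scaled to a common total in each library) over the 4 libraries and were tested, and MTF1 did not. The question was whether MT1G, for which the study designed an RT-qPCR assay, and its relatives differed between control cells and cells in which CFIm25 had been edited and then put back.

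Both groups were H9 cells grown in mTeSR medium with no treatment, with 2 libraries each. The control group has the genotype control in the labels. These do not say whether it was plain H9 cells or the study's mock controls, which were clones that had received an empty editing vector. The other group has the genotype CFIm25 KO+ 3Flag-CFIm25 overexpression and is called KO+OE here, although the title of the series calls the edit a knockdown. By the study's methods it came from 1 edited clone, to which a lentivirus added a tagged copy of CFIm25. CFIm25 is a subunit of the complex that helps choose where the 3′ end of an RNA is cut, and its gene is NUDT21. Reads of the added copy and of NUDT21 itself cannot be told apart in the table, and edited cells without the added copy were not analysed here. Nothing in the labels says that the 2 libraries of a group came from separate cultures, so p-values measure only the spread between these libraries. Of 10 markers of the labelled cell type, 9 reached a mean of 1 TPM, and LIN28B fell just short at 0.96 TPM. Means of the 9 ran from 17.8 TPM for NANOG to 2189 TPM for POU5F1, with LIN28A at 522 TPM. None of 5 markers of mesoderm and endoderm passed 0.59 TPM in any library. Of 3 neural markers, NES had a mean of 80.8 TPM, while PAX6 was at 0.11 TPM and SOX1 at 0.04 TPM. Of 6 fibroblast markers, DCN, LUM and COL3A1 stayed at or near 0, while COL1A1 had a mean of 54.5 TPM, COL1A2 13.6 TPM and THY1, which stem cells also carry, 1304 TPM. Library totals lay between 986853 and 987078 TPM, mitochondrial genes took at most 21.1% in control against 21.6% and 22.1% in KO+OE, and no read counts were given, so the depth is unknown.

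Metallothioneins are very small proteins rich in cysteine that hold zinc and copper ions in clusters. They buffer free zinc in the cell, bind toxic metals such as cadmium and take up oxidants. When free zinc rises, MTF1 enters the nucleus, binds short sequences called metal response elements in the promoters of these genes and of the zinc exporter SLC30A1, and raises their transcription. MT2A and the MT1 genes are made in most tissues, while MT3 is best known from the brain.

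Each of the 9 genes had a main protein-coding transcript of 3 exons. In 8 of them the protein was 61 residues long, and in MT3 it was 68, with 20 cysteines in every case. The transcripts were between 396 and 425 bases, except that of MT1E at 704 bases. In the coding sequences, the 28 pairs that leave out MT3 were 88.5% to 95.1% identical, and the 8 pairs with MT3 were 73.0% to 76.0% identical. The closest relative of MT1G was MT2A, at 95.1%. Such near-identical copies can exchange reads, so the share of each transcript that another gene also holds was counted. Of all windows as long as 1 read, 150 bases, no window of 8 of the 9 transcripts occurred in another gene's transcripts, and MT1X shared 6.67% of its windows with a long noncoding RNA. In windows of 50 bases the shared portion was 51.0% for MT1X, 20.2% for MT1G, 20.4% for MT1H and 0% for MT3. At the read length only MT1X thus shared windows, while over 50 bases every metallothionein but MT3 did. Some of the sharing was with genes outside the 9, which a sum over the 9 does not remove. How reads were assigned to single members was not tested.

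The RT-qPCR primers of the study for MT1G show how alike these RNAs are, and are printed here with the best-matching site in each relative. Capitals mark a base that differs from the primer, and each site is written in the sense of the primer. The forward primer is 20 bases long and had these sites.
MT1G forward primer: gctggtgtctcctgcacctg
MT1G, the transcript that matched both primers: gctggtgtctcctgcacctg
MT1G, another transcript: gcAggtgtctcctgcacctg
MT1F: gctggtgtctcctgcacctg
MT1M: ActggtgtctcctgcGcctg
MT1H: gctggtgGctcctgcGcctg
MT1A: ActggtgGctcctgcacctg
MT2A: gcCggtgActcctgcacctg
MT3: TctggtgGctcctgcacctg
MT1E: ActggtgGctcctgcacGtg
MT1X: CctgTtgGctcctgTGcctg

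MT1F thus carried the forward site with 0 mismatches, like MT1G. The other 7 genes had 2 mismatches, apart from MT1E with 3 and MT1X with 5. The reverse primer, also 20 bases, divided the family differently.
MT1G reverse primer: agctgcacttctccgatgcc
MT1G and MT1E: agctgcacttctccgatgcc
MT1A: agctgcacttctcTgatgcc
MT1F and MT1H: agctgcacttctcTgaCgcc
MT2A: agctgcacttGtccgaCgcc
MT1M: agctgcaGttctccAaCgTc
MT1X: agctgcacttGtcTgaCgTc
MT3: agctgcacttctcTgCtTcT

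The reverse site was complete in MT1E as well as in MT1G. MT1F, which held the forward site, differed from the reverse primer at 2 bases, and only the first MT1G transcript above matched both primers with 0 mismatches among the transcripts searched.

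The promoters show the elements through which MTF1 acts. RefSeq promoters were at hand for 4 of the 10 genes, MT2A, MT1X, MT1H and MTF1, and the 250 bases before each start were searched for the metal response element core, TGCACNC or TGCGCNC, on both strands, where N is any base. The 3 metallothionein promoters are given on build GRCh38.p14, with each match in capitals.
MT2A, chr16:56608334-56608583, plus strand: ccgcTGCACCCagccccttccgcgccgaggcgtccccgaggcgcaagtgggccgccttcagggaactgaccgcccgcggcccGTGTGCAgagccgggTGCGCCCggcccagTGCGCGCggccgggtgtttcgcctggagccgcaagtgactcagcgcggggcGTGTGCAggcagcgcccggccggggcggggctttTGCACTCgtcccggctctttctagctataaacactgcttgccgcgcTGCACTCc
MT1X, chr16:56682220-56682469, plus strand: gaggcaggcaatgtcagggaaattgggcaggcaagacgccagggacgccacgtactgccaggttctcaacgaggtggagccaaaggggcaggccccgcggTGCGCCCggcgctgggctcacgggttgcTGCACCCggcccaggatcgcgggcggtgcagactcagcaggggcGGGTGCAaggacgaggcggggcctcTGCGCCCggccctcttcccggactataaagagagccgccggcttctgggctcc
MT1H, chr16:56669564-56669813, plus strand: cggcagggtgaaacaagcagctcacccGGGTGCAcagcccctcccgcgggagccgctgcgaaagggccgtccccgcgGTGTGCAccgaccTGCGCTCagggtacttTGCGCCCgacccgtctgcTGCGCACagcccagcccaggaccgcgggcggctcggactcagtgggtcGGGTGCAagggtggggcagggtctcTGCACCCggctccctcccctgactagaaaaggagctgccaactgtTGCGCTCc

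MT1H had 8 matches, MT2A 7 and MT1X 4, and MTF1 had 0. Of 35116 human promoters of the same length, 24.8% held at least 1 match and 6.48% at least 2. As many matches as in MT1H were found in 0.0171% of promoters, as many as in MT2A in 0.0313%, and as many as in MT1X in 0.370%. A match describes letters only and is not a measured binding site.

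All 9 metallothioneins lie in 1 cluster on chromosome 16, within 94.7 kb (GRCh38.p14, chr16:56589528-56684196), and MTF1 lies on chromosome 1 (chr1:37809574-37859592). MT3 opens the cluster (chr16:56589528-56591085), followed by MT2A (chr16:56608584-56609497), MT1E (chr16:56625781-56627112), MT1M (chr16:56632659-56633981), MT1A (chr16:56638666-56640087), MT1F (chr16:56657959-56659303), MT1G (chr16:56666730-56668065), MT1H (chr16:56669814-56671129) and MT1X (chr16:56682470-56684196). The gene that was edited, NUDT21 (chr16:56429133-56451332), is on the same chromosome, 138 kb from MT3 and 215 kb from MT1G. Levels along this stretch varied from gene to gene, as the plot of levels by distance from NUDT21 shows.

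**Figure D1:**
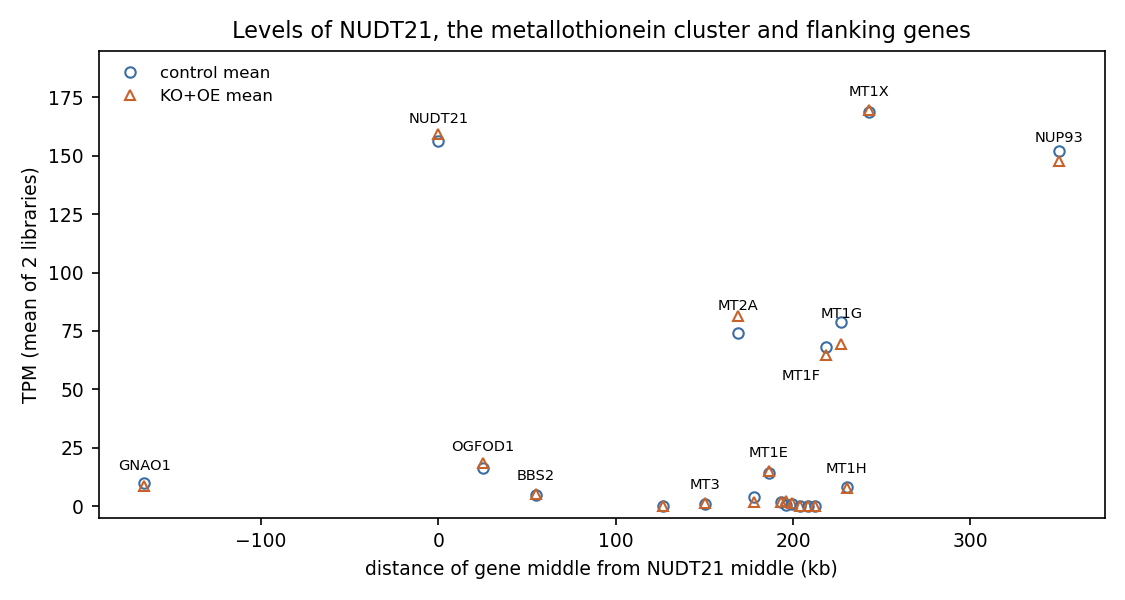
Mean level of each gene (TPM, mean of 2 libraries) in control (circles) and KO+OE (triangles) against the distance of its middle from the middle of NUDT21 (kb). MT1X and NUDT21 stand at a similar height, with MT2A, MT1G and MT1F between 64.6 and 81.3 TPM in both groups, and most of the other cluster genes near 0.

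The level of the family was set by 4 genes. MT1X, MT2A, MT1G and MT1F made up 93.2% to 93.8% of the summed metallothionein TPM in each library. MT1X was first with a mean of 169 TPM over all 4 libraries, 2.18 times the mean of MT2A, and it was above MT2A in all 4 libraries with no overlap of their ranges. MT2A at 77.6 TPM, MT1G at 74.2 TPM and MT1F at 66.5 TPM formed a group whose neighbours overlapped: MT2A was above MT1G in 2 of 4 libraries, and MT1G was above MT1F in 3 of 4. A gap of 4.54 times without overlap led down to MT1E at 14.6 TPM, then 1.84 times to MT1H at 7.95 TPM and 4.11 times to MT1M at 1.94 TPM, again with no overlap. MT1M, MT3 at 1.29 TPM and MT1A at 1.16 TPM overlapped with their neighbours in this order, and MTF1 came last at 0.35 TPM. MT1A and MTF1 also overlapped.

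**Figure D2:**
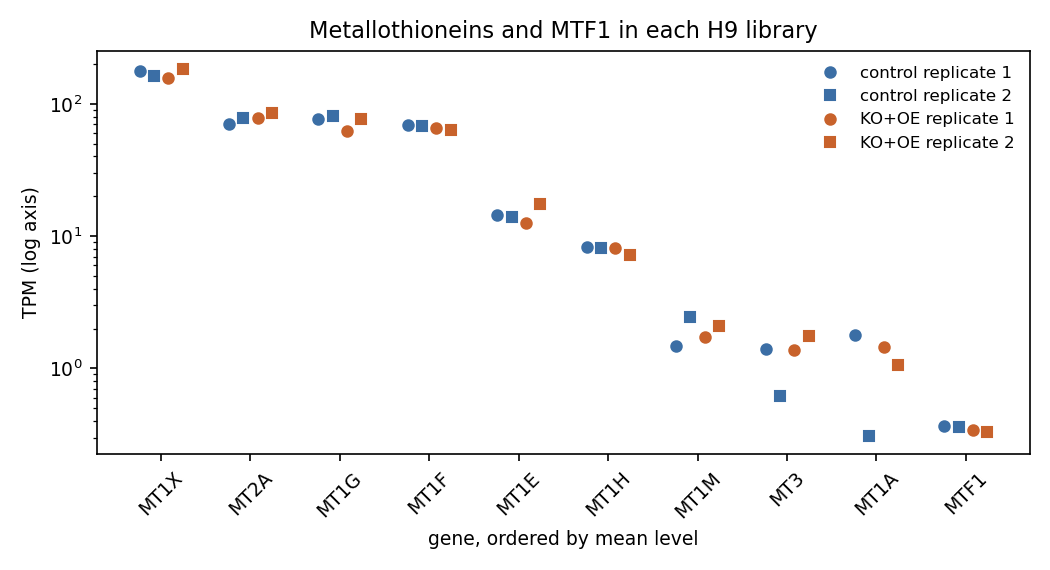
Level of each metallothionein and of MTF1 in each library (TPM on a log axis), with control libraries in blue and KO+OE libraries in orange, replicate 1 as circles and replicate 2 as squares. The order of the genes spans from 169 TPM for MT1X to 0.35 TPM for MTF1, and the 4 libraries of a gene lie close together except for MT3 and MT1A, where control replicate 2 sits lowest.

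MT1G, whose product binds zinc and copper like its relatives, was at 77.29 and 80.17 TPM in control against 62.33 and 76.91 TPM in KO+OE. Both KO+OE values were below both control values, but KO+OE replicate 2 was only just below, and the distance between the 2 KO+OE libraries was larger than that between the nearest libraries of the groups. The means were 78.7 ± 2.04 TPM (SD, n = 2) and 69.6 ± 10.3 TPM (SD, n = 2). On the log2(TPM + 1) scale, which is used for all fold changes here, the difference was -0.18 (95% confidence interval -0.45 to 0.08, SE 0.10), a fold of 0.881 with an interval of 0.732 to 1.06, and it did not pass the test (limma, adjusted p = 0.937, unadjusted p = 0.140). The difference was -0.033 when KO+OE replicate 1 was left out and -0.33 when the other KO+OE library was. For these libraries the interval leaves out a 2-fold change in either direction, but not a small fall or no change. It rests only on their spread and does not bound a change due to the genotype.

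MT2A, the most widely expressed member, was at 70.45 and 77.44 TPM in control against 77.54 and 85.14 TPM in KO+OE. It was higher in KO+OE with no overlap, by a narrow margin between the nearest libraries. The means were 73.9 ± 4.94 and 81.3 ± 5.37 TPM (SD, n = 2 each), and the difference of 0.14 (interval -0.05 to 0.32) did not pass the test (limma, adjusted p = 0.932). It was 0.068 without control replicate 1, 0.069 without KO+OE replicate 2 and 0.20 when either of the other libraries was left out. MT2A and MT1G, the closest pair in coding sequence, thus had differences of opposite sign, neither of which passed.

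MT1X had 175.6 and 162.14 TPM in control and 156.74 and 182.94 TPM in KO+OE. Its KO+OE libraries held both the lowest and the highest value, so the groups overlapped fully, with means of 169 ± 9.52 and 170 ± 18.5 TPM (SD, n = 2 each) and a difference of 0.0051 (interval -0.21 to 0.22, limma, adjusted p = 0.995). The sign of that difference rests on single libraries, as it was -0.11 without KO+OE replicate 2 and 0.12 when the other KO+OE library was left out. MT1F had the steadiest values of the abundant genes, 69 and 67.61 TPM in control and 65.78 and 63.43 TPM in KO+OE. Both KO+OE libraries of MT1F were lower, and the difference of -0.08 (interval -0.20 to 0.04) did not pass (limma, adjusted p = 0.937).

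MT1E was at 14.49 and 13.97 TPM in control against 12.65 and 17.44 TPM in KO+OE, with the 2 control values lying between the 2 KO+OE values. Its difference was 0.06 (interval -0.34 to 0.46, limma, adjusted p = 0.988), and it was -0.16 without KO+OE replicate 2. MT1H was at 8.28 and 8.15 TPM in control against 8.11 and 7.24 TPM in KO+OE. The MT1H groups did not overlap but came close to touching, and the difference was -0.09 (interval -0.35 to 0.17, limma, adjusted p = 0.961). Leaving out KO+OE replicate 2 gave -0.016 for MT1H, and leaving out KO+OE replicate 1 gave -0.16.

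The 3 least abundant metallothioneins scattered most. MT1M was at 1.47 and 2.43 TPM in control against 1.73 and 2.11 TPM in KO+OE, a difference of 0.0015 (interval -0.56 to 0.57, limma, adjusted p = 0.999). MT3, the member best known from neurons, was at 1.4 and 0.62 TPM in control against 1.37 and 1.76 TPM in KO+OE, and MT1A was at 1.79 and 0.31 TPM and at 1.46 and 1.07 TPM. In both of these genes control replicate 2 was the low library, and the groups overlapped. The differences were 0.38 for MT3 (interval -0.28 to 1.03, limma, adjusted p = 0.942) and 0.24 for MT1A (interval -0.78 to 1.25, limma, adjusted p = 0.980). That of MT3 came to 0.092 when control replicate 2 was left out and was 0.66 when control replicate 1 was. Without control replicate 2 the MT1A difference was -0.31 and without control replicate 1 it was 0.78, so these data do not give MT1A a direction.

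MTF1, which senses zinc and drives the others, was at 0.37 and 0.36 TPM in control against 0.34 and 0.33 TPM in KO+OE. The groups of MTF1 differed by a few steps of the 2 decimals to which the table is rounded. In a fit without the filter on low values its difference was -0.03 (interval -0.27 to 0.20, limma, adjusted p = 0.945). The abundant metallothioneins were therefore seen beside a low MTF1 level in both groups.

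Of the 9 metallothioneins tested, 0 passed an adjusted p of 0.05, against 0.00812% of the 12319 genes tested (limma). At an unadjusted p under 0.05 there were also 0 of 9, against 5.33% of all genes. The groups did not overlap in 4 of 9, lower in KO+OE for MT1G, MT1F and MT1H and higher for MT2A, against 34.1% of all genes tested, so this count was near the background. The median difference of the 9 genes was 0.0051, beside -0.012 over all genes. For 7 of the 9 the interval lay within a 2-fold change in both directions on the log2 scale used here. The exceptions were MT1A and MT3. That scale understates the fold change of low genes. A p that misses the threshold does not show that the values were equal. The intervals rest only on the spread between these libraries, which may not be separate cultures. They therefore do not bound a change due to the genotype.

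**Figure D3:**
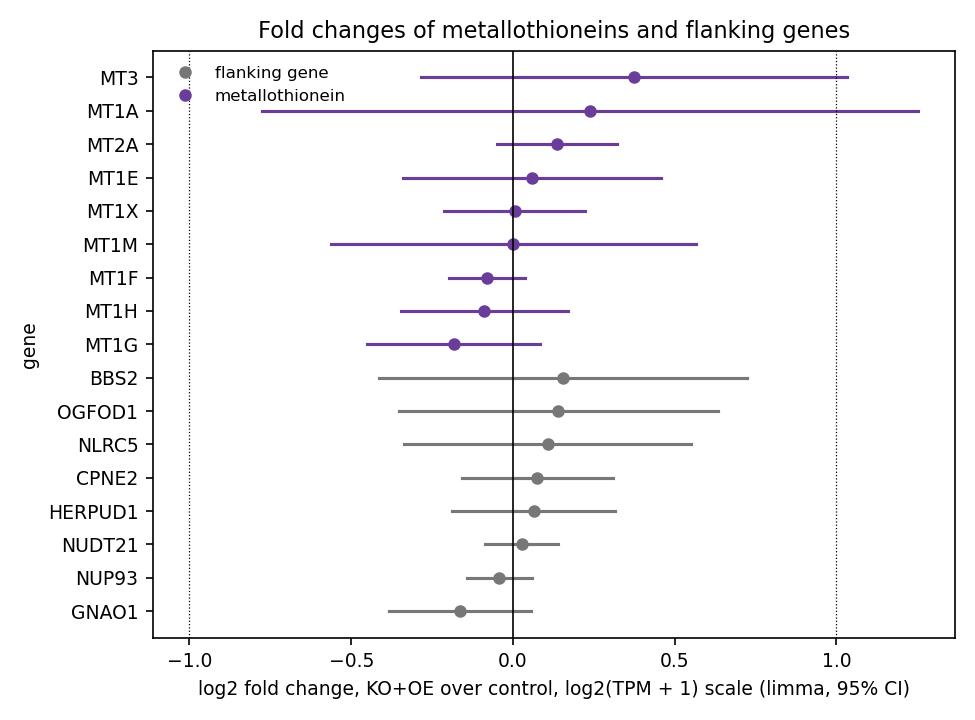
Difference of KO+OE over control on the log2(TPM + 1) scale for 9 metallothioneins (purple) and 8 tested flanking genes (grey), points with 95% confidence intervals from limma, and dotted lines at a 2-fold change. All of the intervals cross 0, and among the metallothioneins only those of MT3 and MT1A reach past the 2-fold line.

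The summed level of the 9 metallothioneins was 419.77 and 412.84 TPM in control and 387.71 and 438.04 TPM in KO+OE. The 2 KO+OE libraries lay on either side of both control libraries, with means of 416 ± 4.90 and 413 ± 35.6 TPM (SD, n = 2 each), so that KO+OE stood at 99.2% of control. In these bulk libraries fewer cells that express a gene and less RNA per cell cannot be told apart. The sum could hide a shift between members, and the make-up was therefore compared. MT1X took 41.8% and 39.3% of the sum in control and 40.4% and 41.8% in KO+OE, which overlapped. MT1G took 18.4% and 19.4% in control and 16.1% and 17.6% in KO+OE, while MT2A took 16.8% and 18.8% in control and at least 19.4% in KO+OE, neither with overlap. MT1F took 16.4% and 16.4% in control and 17.0% and 14.5% in KO+OE, with overlap. Shares of the same sum are tied to each other, so these are not separate observations. Separation is also common with 2 libraries per group, as the TPM values of 34.1% of all genes tested were separate. The ratio of MT1G to MT2A, chosen after the values had been seen and given as a description, was 1.10 and 1.04 in control and 0.804 and 0.903 in KO+OE.

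The 2 KO+OE libraries differed in both directions over the metallothioneins. KO+OE replicate 1 was below replicate 2 by 0.30 for MT1G, 0.22 for MT1X and 0.43 for MT1E on the log2 scale. Of the genes within 1.5 times of the same mean level, 97.9% of 1005 had a smaller gap between these 2 libraries than MT1G, 97.8% of 539 than MT1X and 95.9% of 2028 than MT1E. Replicate 1 was also below replicate 2 by 0.13 for MT2A, 0.19 for MT1M and 0.22 for MT3. For these, 84.8%, 50.3% and 53.6% of the genes of like level had a smaller gap. The gap ran the other way, with replicate 1 above replicate 2, by 0.05 for MT1F, 0.14 for MT1H and 0.25 for MT1A, and 45.4%, 55.3% and 58.6% of the genes of like level had a smaller one. In the control group, MT1A had the widest gap, 1.09 on the log2 scale, larger than that of 96.9% of 1687 genes of like level. KO+OE replicate 2 held the highest value of 4 of the 9 metallothioneins and the lowest of 2, MT1F and MT1H, and KO+OE replicate 1 held the highest of 0 and the lowest of 3. KO+OE replicate 2 also had the largest mitochondrial share, 22.1%, and the fewest genes at 1 TPM or more, 12179 against 12284 to 12332 in the other libraries, and the part of these in the metallothionein values was not tested.

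Since a profile over 4 libraries can be shared by many genes, those most like MT1G were sought among the 7392 other genes whose mean reached 5 TPM. Likeness was the root mean square difference of the log2 profiles after each had been centred. The nearest were MAP11 at 0.0193, RBIS at 0.0251 and FBXL6 at 0.0256. MAP11, for example, was at 6.95 and 7.28 TPM in control against 5.34 and 6.68 TPM in KO+OE. The nearest metallothionein was MT1X at 0.114, and 950 genes, with MT1X itself counted, were at that distance from MT1G or nearer. MT2A at 0.172 was the farthest of the metallothioneins compared.

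Other metallothionein genes and pseudogenes of the human genome were listed at 10, of which 9 had a row in the table. MT4, MT1B and 4 others were listed at 0 TPM in all 4 libraries. MT1L, a transcribed pseudogene between MT2A and MT1E, was at 2.72 and 5.12 TPM in control against 1.87 and 1.71 TPM in KO+OE, a difference of -0.77 (interval -1.46 to -0.09, limma, unadjusted p = 0.0330, adjusted p = 0.928). MT1JP, a pseudogene between MT1M and MT1A, was at 0 and 0.57 TPM in control against 1.09 and 3.26 TPM in KO+OE, a difference of 1.25 (interval 0.16 to 2.34, limma, unadjusted p = 0.0320, adjusted p = 0.928). Both sets of values were separate between the groups, in opposite directions, and neither passed over all genes. Such separation was seen in 34.1% of all genes tested. Without the filter on low values the unadjusted p was 0.0566 for MT1L and 0.0546 for MT1JP. All 150-base windows of the MT1L transcript also occurred in another annotated gene, so its reads may be shared. Whether that gene is a separate locus, and how reads were assigned, was not tested. For MT1JP, 0% of the 150-base windows but 29.2% of the 50-base windows also occurred in other genes, among them MT1E, MT1F and MT1G. The part of this in the MT1JP values was not tested. The third tested gene, MT1XP1, was at 4.37 TPM in control replicate 2 and at 0 TPM in the other 3 libraries (limma, unadjusted p = 0.187).

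Zinc transporters were examined next, as the genes that set the zinc load which metallothioneins buffer. Exporters of the SLC30A family were low: 3 of 10 were tested, 0 passed an adjusted p of 0.05 or an unadjusted p under 0.05 (limma), and their median difference was 0.18. The highest, SLC30A5, which loads zinc into the secretory pathway, was at 9 and 6.58 TPM in control against 10.87 and 7.25 TPM in KO+OE, with overlap. SLC30A1, the exporter that MTF1 activates, was at 0.55 and 0.72 TPM and at 0.58 and 0.54 TPM, too low to be tested.

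Importers of the SLC39A family were more abundant, and 11 of 14 were tested with a median difference of 0.015. None of the 11 passed an adjusted p of 0.05 (limma). At an unadjusted p under 0.05 there were 2, both lower in KO+OE, against 5.33% of all genes tested (limma). SLC39A13 was at 19.39 and 21.03 TPM in control against 16.09 and 16.17 TPM in KO+OE, a difference of -0.31 (interval -0.50 to -0.12, limma, unadjusted p = 0.00875, adjusted p = 0.928). SLC39A3 was at 39.01 and 40.38 TPM and at 34.57 and 36.11 TPM, a difference of -0.16 (limma, unadjusted p = 0.0324, adjusted p = 0.928). Both were separate between the groups, as were 34.1% of all genes tested. The most abundant importer, SLC39A1, which brings zinc in at the cell surface, was nearly level at 124.5 and 126.37 TPM and at 123.38 and 123.71 TPM, a difference of -0.02.

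Among 12 genes of copper handling, 10 were tested, 0 passed an adjusted p of 0.05, and the median difference was -0.07 (limma). At an unadjusted p under 0.05 there was 1, against 5.33% of all genes tested (limma). This was CCS, the chaperone that hands copper to SOD1. CCS was at 67.01 and 65.19 TPM in control against 61.45 and 59.49 TPM in KO+OE, a difference of -0.13 (limma, unadjusted p = 0.0413, adjusted p = 0.928). SOD1 itself, the zinc and copper enzyme that removes superoxide and the most abundant of the list, was at 160.46 and 167.07 TPM and at 169.89 and 170.93 TPM, a difference of 0.06 that did not pass (limma, adjusted p = 0.938).

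Genes that answer metals and oxidants in other ways gave 10 tested of 11, with 0 past an adjusted p of 0.05, 0 at an unadjusted p under 0.05 and a median difference of -0.06 (limma). NQO1, a quinone reductase and the highest of them, was at 122.16 and 121.5 TPM in control against 131.59 and 125.72 TPM in KO+OE, and its difference of 0.08 did not pass (limma, adjusted p = 0.932). HMOX1, the heme oxygenase that rises under heme and metal stress, was chosen for naming after its values had been seen and was at 31.21 and 31.85 TPM and at 30.67 and 34.16 TPM. The groups of HMOX1 overlapped. GCLM, also named after its values had been seen, had the difference farthest below 0 of the list, -0.49 (limma, unadjusted p = 0.113, adjusted p = 0.932). It was at 2.45 and 1.97 TPM in control against 0.86 and 1.81 TPM in KO+OE. The groups of GCLM did not overlap, as in 34.1% of all genes tested.

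**Figure D4:**
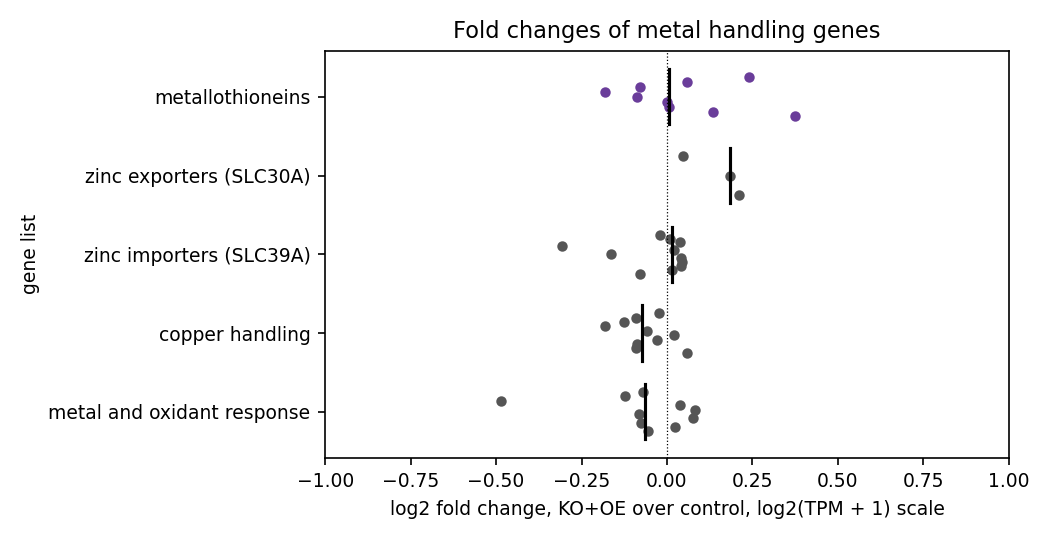
Difference of KO+OE over control on the log2(TPM + 1) scale for each tested gene (points) of the metallothioneins and of 4 lists of metal handling genes, with the median of each list as a vertical bar. Medians lie between -0.07 for copper handling and 0.18 for the 3 tested zinc exporters, and no gene shown passed an adjusted p of 0.05.

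Because the edited gene lies beside the cluster, the genes on both sides of the metallothioneins were read in the same way. NUDT21, which codes for CFIm25, was at 160.67 and 152.2 TPM in control against 162.09 and 156.6 TPM in KO+OE, where the added copy is counted with it if its sequence was assigned to the gene. The NUDT21 groups overlapped, with a difference of 0.03 (interval -0.09 to 0.14, limma, adjusted p = 0.980). NUP93, a nuclear pore subunit and the first neighbour listed past MT1X, was at 155.57 and 148.57 TPM and at 147.71 and 147.59 TPM, a difference of -0.04 (limma, adjusted p = 0.953). GNAO1, a G protein subunit, was at 10.17 and 9.78 TPM and at 8.9 and 8.69 TPM, the neighbour farthest from 0 on the negative side at -0.16 (limma, unadjusted p = 0.114, adjusted p = 0.932).

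The remaining neighbours tested had differences between 0.06 and 0.15, namely OGFOD1, BBS2, HERPUD1, CPNE2 and NLRC5. SLC12A3 and CETP had means of 0.0175 and 0.0475 TPM and were not tested. Of the 10 neighbours reported, 8 were tested, 0 passed an adjusted p of 0.05, 0 had an unadjusted p under 0.05, and the median difference was 0.07 (limma).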

How the data were processed

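RNA selected for poly(A) tails was sequenced from 4 H9 libraries as paired reads of 150 bases. The authors deposited 1 table of 60671 genes with a column per library, under a header that gives no unit. The deposited values were read as TPM because each column sums to nearly the same total and holds decimals, so they are relative levels, and a gene's length enters its value. The submitters' processing notes name HISAT2, featureCounts, Subread, DESeq2 and the build hg38, without saying which made the table, and an annotation version is not given in the sources used here. The table held 0 other per-sample columns.

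Groups and replicate numbers came from the sample titles. Genes whose mean reached 1 TPM were compared on log2(TPM + 1), 12319 in all, with limma 3.58.1 in R 4.3.3 (eBayes with a mean-dependent prior, group as the only term, two-sided, Benjamini-Hochberg over all genes tested, threshold 0.05). A fold change on this scale understates that of low genes. A count test could not be used because no counts were given. The step was tested on simulated data with larger changes than any reported here, and recovery was scored only for the more abundant genes. That test does not show whether small changes, or changes of low genes, would be found. The members and lists were chosen with earlier results of these data known. Genes named are the 10 members, the highest gene of each list and those at an unadjusted p under 0.05, the listed neighbours of the cluster (1 is not reported here and is in no count or plot of them), and the 3 genes with a mean of 5 TPM or more nearest to MT1G in profile; others are said to be chosen later.

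The deviations of same-numbered libraries had a correlation of -0.05 over 12319 genes, so the numbers were not taken to pair them. Alternatives were pseudocounts of 0.1 and 5, no filter and a filter at a mean of 5 TPM, median-ratio rescaling, quantile normalization, rescaling without mitochondrial genes, a replicate block, limma with a constant prior, and fits that each leave out 1 library. Positions and promoters are RefSeq's on GRCh38.p14. Transcript sequences are GENCODE's release 44 in its version lifted to the earlier genome build, matched by gene identifier. Primer sequences are the study's. Scripts ran in Python 3.11.15, pandas 2.3.3 and numpy 2.4.6, and plots drawn with matplotlib 3.10.9.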

Additional observations from a re-analysis of the deposited data

How the results depend on the processing

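Under 13 alternatives, 107 of 114 metallothionein differences kept their sign and stayed short of the threshold, and 0 metallothioneins, 0 genes of the metal lists and 0 neighbours passed an adjusted p of 0.05 (limma). A change of filter, the constant prior and the replicate block leave the difference of a single gene unchanged, so its sign was kept there by construction. The lowest adjusted p of a metallothionein was 0.873. The sign reversed for MT1M with a pseudocount of 5 (-0.0033), without control replicate 1 (-0.24) and without KO+OE replicate 2 (-0.092), against a highest value of 0.24 without control replicate 2. It reversed without control replicate 2 for MT1A (-0.31) and MT1X (-0.052), and without KO+OE replicate 2 for MT1E (-0.16) and MT1X (-0.11). Leaving out 1 library at a time gave up to 0.78 for MT1A, 0.28 for MT1E and 0.12 for MT1X, and -0.33 to -0.033 for MT1G. In the same way the log2 ratio of the summed level, -0.012, ran from -0.10 to 0.073, and the median difference, 0.0051, from -0.053 to 0.11, with the lower end without KO+OE replicate 2 and the upper end when the other KO+OE library was left out. In these fits 1 group has a single library, which is assumed to vary like the other group. The cause was not tested. With the replicate block MT1G was at -0.18 (limma, adjusted p = 0.873), and no call changed. All-gene calls were 1 and, under 9 alternatives, 0. A filter at a mean of 5 TPM leaves no value for MT1M, MT3 and MT1A. With 2 libraries per group and unknown depth, small changes of members under 2 TPM could not be resolved.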

Other observations

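Iron handling genes were looked at in the same fit, as a list chosen after the data had been seen. Of 14 genes 10 were tested, 0 passed an adjusted p of 0.05 (limma), and the median difference was -0.0050. At an unadjusted p under 0.05 there was 1, against 5.33% of all genes tested (limma). That gene was FTH1, the heavy chain of ferritin, at 3997.16 and 3744.88 TPM in control against 3070.73 and 3244.93 TPM in KO+OE. Both KO+OE libraries were below both control libraries, and the difference was -0.29 on the log2(TPM + 1) scale (interval -0.41 to -0.18, limma, unadjusted p = 0.00108, adjusted p = 0.556). Groups were separate in this way, in either direction, for 34.1% of all genes tested. FTL, the light chain, was at 6409.01 and 6555.41 TPM and at 6388.51 and 6656.85 TPM, a difference of 0.0088, with overlap. FTH1 has many near-identical pseudogene copies that can take its reads, and their part in the values was not tested.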
